A study of Mus musculus with 16 samples.

Results

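A set of 10 genes of sugar breakdown was followed, from the transporter that brings glucose into the cell to the enzyme that makes lactate: Slc2a1, Hk2, Pfkl, Aldoa, Tpi1, Pgk1, Eno1, Pkm and Ldha, together with G6pdx, which draws glucose-6-phosphate away into the pentose phosphate route. They were chosen by symbol, with earlier results of these data known, and all 10 were found among the 55359 genes of the read count table. Aldoa matched 2 identifiers. The one with 427722 counts over all libraries was used, and the other held 232. Every member passed the filter on low counts in each of the 5 comparisons made.

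Glucose that enters a cell is phosphorylated by a hexokinase, and the resulting glucose-6-phosphate can be burnt through glycolysis, stored as glycogen, used for sugar nucleotides or oxidised in the pentose phosphate pathway, which yields NADPH and ribose. Glycolysis splits the sugar into trioses and turns these into pyruvate, which enters the mitochondria or is reduced to lactate. Small intestinal enterocytes carry much of the absorbed sugar through to the blood and also break down fructose, while Paneth cells at the crypt base are known for glycolysis that supplies lactate to neighbouring stem cells.

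The libraries came from total RNA of duodenum and ileum of adult male C57BL/6N mice, all on a high fat diet and all sampled 5 weeks after tamoxifen. Control mice (C133, C134, C151 and C154) had the genotype Neurog3f/f, that is, floxed alleles of the gene that starts enteroendocrine differentiation. Mutant mice (M136, M167, M168 and M177) were Neurog3f/f and also carried Villin-CreERT2, a tamoxifen-dependent recombinase driven by a promoter of the intestinal epithelium, so that other Neurog3-expressing tissues need not be recombined. C and M stand here for control and mutant before the number in each library's title. The study asked what the gut transcribes when enteroendocrine cells, its hormone-secreting cells, are missing. Each group of tissue and genotype held 4 libraries, and each mouse gave 1 library per tissue.

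Libraries held 40.9 to 67.2 M counts. Neurog3 had 549 counts over the 4 control libraries against 1 over the 4 mutant libraries in the duodenum, and 201 against 1 in the ileum. Fabp6, an ileal marker, averaged 0.120 CPM (counts per M, after scaling of library sizes) in control duodenum and 1149 CPM in control ileum, and Pdx1, a duodenal factor, averaged 61.3 and 1.60 CPM. Genes of the exocrine pancreas took 2.72 and 1.81% of counts in the duodenum of C133 and C151, 0.00683 and 0.00704% in that of C134 and C154, 0.776% in M136, 3.71% in M168 and at least 15.6% in M167 and M177, and at most 0.384% in any ileum library. Group levels are given in CPM as mean ± SD (n = 4). Per-length levels are CPM per kb of exon, written FPKM. The words rose and fell are kept for genes with a Benjamini-Hochberg adjusted p under 0.05 in the quasi-likelihood test of edgeR.

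The members moved together in the ileum, so the sequences ahead of their start sites are shown for 4 of them: Slc2a1 and Pfkl with the largest ileal fold changes, and Hk2 and Ldha at the first and last enzymatic steps. Each is the 250 bases before a RefSeq start site (GRCm38.p6), on the strand of the gene, at chr4:119108495-119108744 (plus strand) for Slc2a1, chr6:82774455-82774704 (minus) for Hk2, chr10:78009808-78010057 (minus) for Pfkl and chr7:46845554-46845803 (plus) for the first of 2 start sites of Ldha. Capitals mark 3 motifs searched on both strands: ACGTG and GCGTG, the core letters bound by hypoxia-inducible factors, and CACGTG, the E-box bound by MYC with MAX, which also holds ACGTG on either strand.
Slc2a1: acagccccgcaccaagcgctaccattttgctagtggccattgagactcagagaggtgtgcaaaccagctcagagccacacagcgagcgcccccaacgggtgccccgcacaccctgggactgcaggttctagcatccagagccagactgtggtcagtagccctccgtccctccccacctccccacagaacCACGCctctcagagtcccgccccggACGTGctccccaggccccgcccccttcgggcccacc
Hk2: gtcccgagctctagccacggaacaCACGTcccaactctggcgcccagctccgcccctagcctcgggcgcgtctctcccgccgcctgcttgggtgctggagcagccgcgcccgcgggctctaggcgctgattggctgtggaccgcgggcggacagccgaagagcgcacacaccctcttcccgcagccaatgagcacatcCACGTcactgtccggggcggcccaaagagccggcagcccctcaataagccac
Pfkl: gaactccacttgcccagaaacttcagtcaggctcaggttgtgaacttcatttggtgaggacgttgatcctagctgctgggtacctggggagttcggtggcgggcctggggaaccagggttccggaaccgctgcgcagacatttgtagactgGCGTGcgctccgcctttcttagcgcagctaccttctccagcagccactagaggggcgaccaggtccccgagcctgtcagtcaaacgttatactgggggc
Ldha: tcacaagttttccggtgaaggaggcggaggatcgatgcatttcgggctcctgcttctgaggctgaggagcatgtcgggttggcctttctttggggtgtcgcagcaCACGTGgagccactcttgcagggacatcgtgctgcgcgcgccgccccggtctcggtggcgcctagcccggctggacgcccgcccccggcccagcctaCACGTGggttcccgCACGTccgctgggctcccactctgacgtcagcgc
Slc2a1 had 1 ACGTG and 1 GCGTG, the latter read on the opposite strand as CACGC. Hk2 had 2 ACGTG, both read as CACGT, and Pfkl had 1 GCGTG. Ldha had 2 CACGTG and 1 further ACGTG, read as CACGT. Over all 16 windows of the 10 members, 13 held at least 1 of the 3 motifs, against 38.6% of 32851 windows of the same length in the RefSeq table. ACGTG was in 7 of the 16 (16.6% of all windows), GCGTG in 7 (28.2%) and CACGTG in 1 (6.02%). The windows are not all separate: 2 of Aldoa share 174 bases and 2 of Eno1 share 223, so some matches are counted in both. With such windows joined, 11 of 14 regions held a motif. Tpi1 was the member with none. The comparison windows had the same length but were not matched for base composition, and each of the 3 motifs holds the letters CG. A match describes these letters only.

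In the ileum, all 10 members rose in mutant mice. The fold changes ran from 0.43 to 1.50 on the log2 scale, with a median of 0.85, whereas the median over all tested genes was -0.03. Of all 18310 genes tested there, 3474 rose, a background of 19.0%. Because the members were chosen with earlier results of these data known, their counts beside such backgrounds are descriptive and not a test. For 8 of the 10, the 4 mutant libraries lay above all 4 control libraries in CPM, as did those of 16.9% of all genes tested there; Hk2 and G6pdx overlapped. Bulk RNA cannot tell more cells of a type from more RNA per cell, so a higher level may be either.

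Among the 10 members, the transcript of the glucose transporter had the largest change. Slc2a1, which encodes the transporter GLUT1, stood at 20.8, 14.9, 17.4 and 18.1 CPM in the ileum of C133, C134, C151 and C154 and at 39.3, 69.8, 34.2 and 52.5 CPM in that of M136, M167, M168 and M177. Every mutant library was above every control library, and M167 was the highest (log2 fold change 1.50, SE 0.22, adjusted p = 0.00088). Hk2, the hexokinase that binds mitochondria and phosphorylates glucose, read 51.2, 38.4, 45.1 and 56.3 CPM in the same control mice and 47.4, 86.2, 85.2 and 126 CPM in the mutants. M136 stayed within the controls while the other 3 mutants lay above them (0.88, SE 0.27, adjusted p = 0.033). The Hk2 call was the least stable of the 10: it was lost in 9 of 17 alternatives, among them the removal of C133, C134, C151, M167, M168 or M177, with adjusted p from 0.00197 to 0.156 over all 17.

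At the committed step, the Pfkl transcript was higher in all mutant mice. Pfkl, the liver-type subunit of phosphofructokinase, read 38.8, 38.0, 30.6 and 30.0 CPM in control ileum and 71.8, 72.8, 59.6 and 89.2 CPM in mutant ileum, a rise of 1.13 (SE 0.13, adjusted p = 0.00018). Its lowest mutant library was well above its highest control library. Aldoa, the aldolase that cleaves fructose-1,6-bisphosphate, rose from 469, 329, 394 and 388 CPM to 630.2, 589, 572 and 656 CPM (0.67, SE 0.11, adjusted p = 0.0013). Tpi1, which interconverts the 2 trioses, rose least, from 259, 273, 239.9 and 254 CPM to 365, 294, 340.4 and 359 CPM (0.43, SE 0.10, adjusted p = 0.0058). The groups did not overlap in either gene, though for Tpi1 M167 lay close above C134, the highest control.

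The enzymes of the later steps rose by 0.82 to 0.88. Pkm, the pyruvate kinase of most non-hepatic cells, read 205, 199, 194 and 186 CPM in control and 377, 331, 356 and 351 CPM in mutant ileum (0.88, SE 0.08, adjusted p = 6.0e-05), with the smallest SE among the members. Ldha, the lactate dehydrogenase subunit that favours lactate, read 462, 506, 458 and 549.9 CPM against 960.5, 783, 813 and 939 CPM (0.85, SE 0.11, adjusted p = 0.00030). Eno1, an enolase, read 50.1, 44.1, 40.9 and 44.5 CPM against 78.3, 70.6, 77.2 and 84.0 CPM (0.82, SE 0.09, adjusted p = 0.00012). In all 3 genes the groups were far apart relative to the spread within them. Pgk1, which makes the first ATP of the pathway, was scarce, at 2.21, 2.57, 2.56 and 3.27 CPM against 5.42, 3.81, 4.18 and 5.32 CPM (0.85, SE 0.19, adjusted p = 0.0056).

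G6pdx, the X-linked glucose-6-phosphate dehydrogenase that opens the pentose phosphate pathway, read 79.8, 76.4, 61.7 and 67.2 CPM in control ileum and 120.1, 74.0, 95.1 and 108 CPM in mutant ileum. M167 lay within the controls and the other 3 mutants above them (0.51, SE 0.14, adjusted p = 0.018). Its call was lost without C151, without M136, without M177 and without C134 and C154, with adjusted p of up to 0.0655. The other 8 members kept their call in all 17 alternatives.

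**Figure D1:**
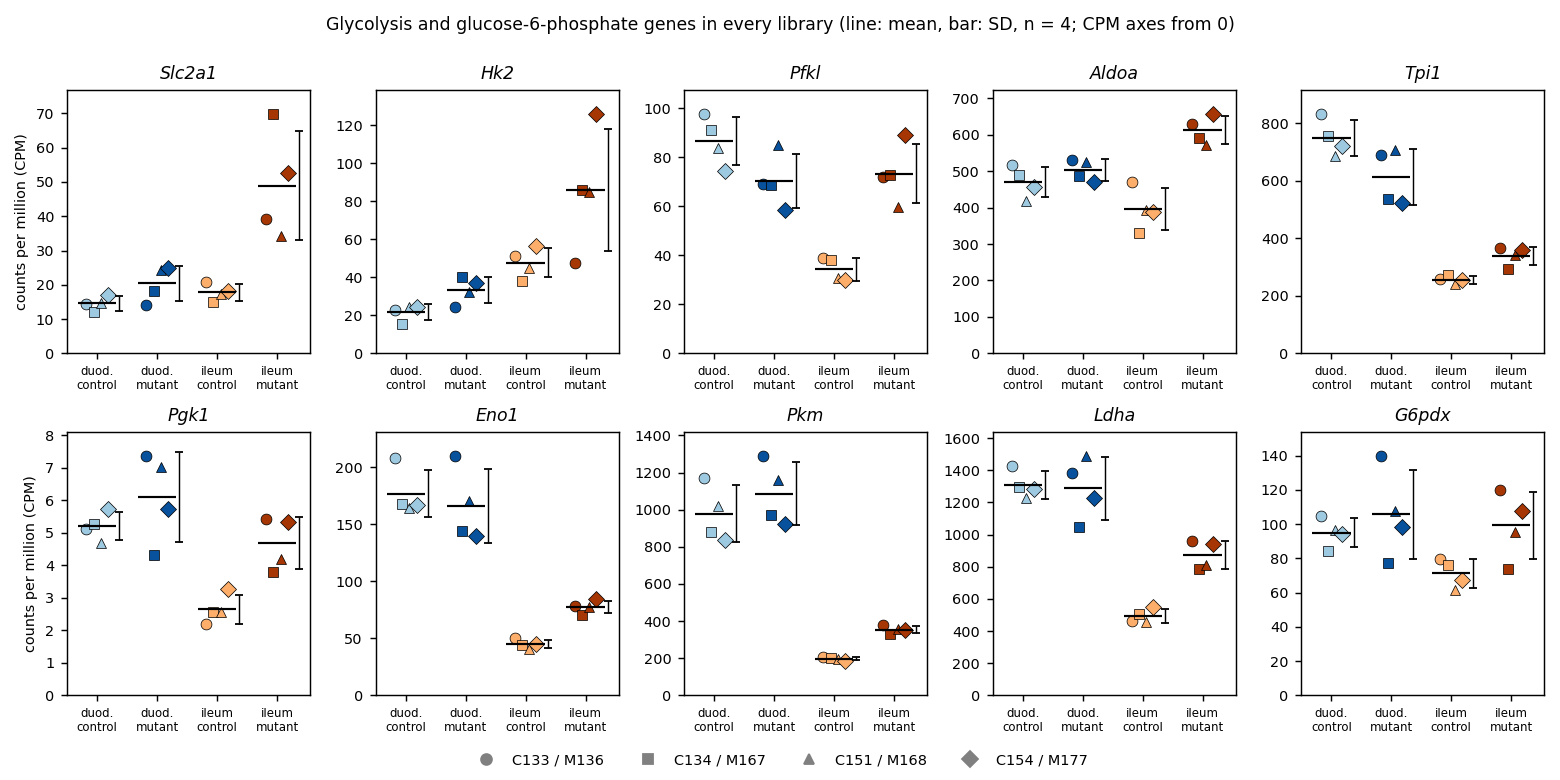
Level of each of the 10 members in every library, in CPM on axes that start at 0 and differ between panels; colours are the 4 groups, symbols the mice, lines the means and bars the SD (n = 4). In the ileum the mutant libraries of 8 members lie above all control libraries (16.9% of all tested genes do), while in the duodenum the 2 genotypes overlap for every member but Hk2 (7.81% of all tested genes have mutant libraries wholly above).

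In the duodenum no member passed the test with edgeR, against a background of 3.44% of 17611 genes called higher and 5.11% called lower. At an unadjusted p under 0.05 there were 3: Hk2 and Slc2a1 with higher and Pfkl with lower values in mutants. Over all genes tested, 14.8% had higher and 14.4% lower values at that level, so 3 of 10 is close to the background. DESeq2 called 1 member (background 7.81% higher) and limma-voom none. The median log2 fold change was 0.14, and adjusted p ranged from 0.0537 to 0.974.

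Hk2 came nearest, and was the single member whose mutant libraries all lay above the controls (7.81% of all genes tested there), with 22.9, 15.4, 24.3 and 24.2 CPM in C133, C134, C151 and C154 and 24.6, 40.3, 32.1 and 36.9 CPM in M136, M167, M168 and M177 (0.64, SE 0.18, adjusted p = 0.0537). The lowest mutant library, M136, lay only narrowly above the highest control, C151. Without M136 the value was 0.76 (adjusted p = 0.0215), and DESeq2 gave adjusted p = 0.0151. Slc2a1 read 14.5, 12.0, 14.7 and 17.1 CPM in controls and 14.1, 18.3, 24.4 and 24.9 CPM in mutants (0.50, SE 0.18, adjusted p = 0.102). M136 again lay among the controls, and without it the value was 0.64 (adjusted p = 0.0273), so that 2 members passed without that mouse. Calls over all genes also increased in that fit, from 3.44 to 5.74% higher.

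Further down the pathway the duodenal groups overlapped. Pfkl read 97.6, 91.0, 83.6 and 74.6 CPM in controls and 69.3, 68.7, 85.2 and 58.4 CPM in mutants (-0.29, SE 0.13, adjusted p = 0.167), and Tpi1 averaged 748 ± 62.7 against 613 ± 97.8 CPM (-0.27, SE 0.15, adjusted p = 0.255). Both had lower means in mutants, without passing. Pkm averaged 978 ± 152 against 1085 ± 170.2 CPM, Ldha 1308 ± 85.9 against 1286 ± 193 CPM, Eno1 176.7 ± 20.9 against 166 ± 32.1 CPM, Aldoa 469.7 ± 41.9 against 503 ± 29.9 CPM, Pgk1 5.20 ± 0.439 against 6.11 ± 1.38 CPM and G6pdx 95.0 ± 8.56 against 106 ± 26.1 CPM. Their log2 fold changes lay between -0.08 and 0.25, with SE from 0.12 to 0.18. M167 and M177, the libraries rich in pancreatic transcripts, held the lowest Eno1 and Tpi1 values of all duodenal libraries, and without these 2 mice the Eno1 value was 0.11 instead of -0.08. With 12 exocrine pancreas genes left out of the fit no member was called, and Eno1 and Tpi1 stood at -0.08 and -0.28. That fit leaves in place any reads of the members that came from pancreas, so it cannot show their part.

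Whether the genotype effect differed between the tissues was tested directly, in 1 fit to all 16 libraries. The effect was larger in the ileum for 5 members: Pfkl (difference 1.40, SE 0.20, adjusted p = 0.0024), Eno1 (0.88, SE 0.17, adjusted p = 0.011), Ldha (0.85, SE 0.19, adjusted p = 0.018), Pkm (0.70, SE 0.19, adjusted p = 0.033) and Tpi1 (0.69, SE 0.17, adjusted p = 0.027). The background was 4.86% of 19289 genes with a more positive effect in the ileum and 4.13% with a more negative one. Slc2a1 (0.97, SE 0.30) and Aldoa (0.53, SE 0.17) missed the threshold, each with adjusted p = 0.052, and passed with the mouse as a block (0.95, adjusted p = 0.032, and 0.54, adjusted p = 0.024). With that block 10.8% of all genes had a more positive effect. Both genes also passed with DESeq2 size factors, the DESeq2 Wald test and pancreas genes left out. Pgk1 (0.59, SE 0.26), G6pdx (0.32, SE 0.23) and Hk2 (0.23, SE 0.34) were not called, so for Hk2 the 2 tissues were not shown to differ.

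Pfkl was called in all 17 alternatives. Eno1 kept its call whichever single mouse was left out (edgeR adjusted p of up to 0.0487) and lost it without C134 and C154. The calls of Ldha, Pkm and Tpi1 were each lost without some single mice. With such mice left out, 2 members were called without C133 or without C151, and 3 without C134, C154, M136 or M177. Another 2 fits left out pairs of mice, with 3 members called without M167 and M177 and 1 without C134 and C154. In that last fit 14 of 20053 genes were called with a more positive and 8 with a more negative effect, and in the other fits named here 0.508 to 4.61% of all genes had a more positive one.

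**Figure D2:**
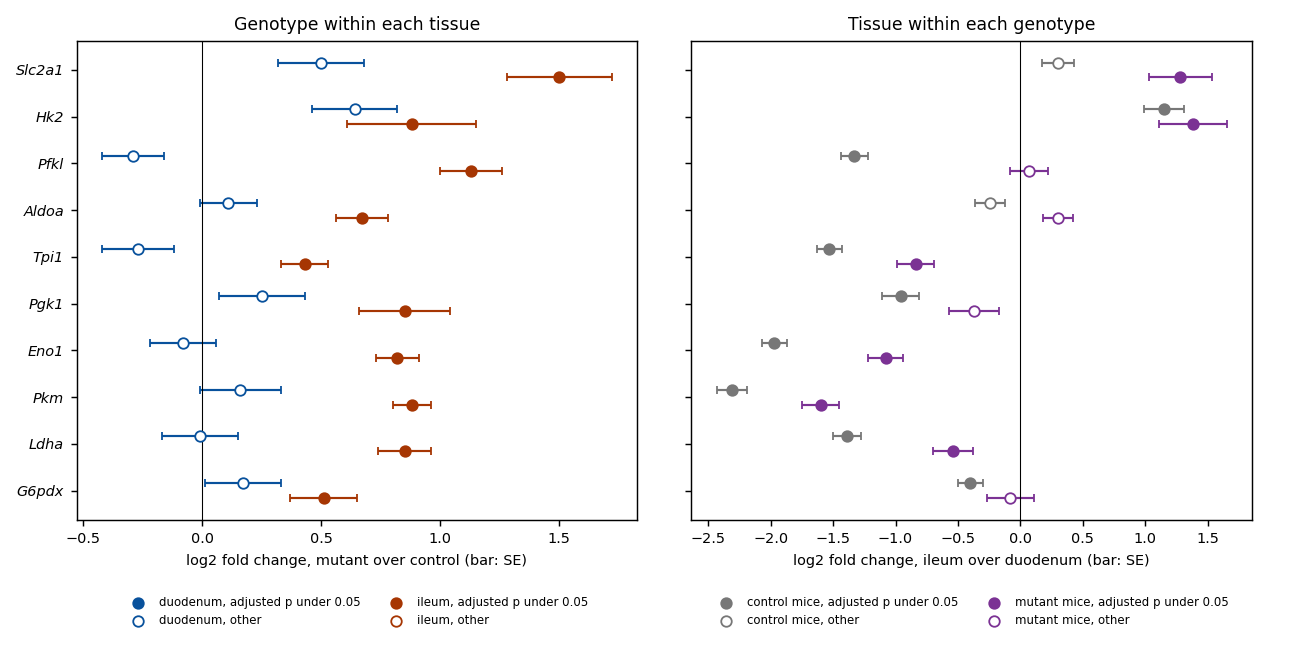
Log2 fold changes of the 10 members with their SE, on the left for mutant over control in duodenum and ileum, on the right for ileum over duodenum in control and mutant mice; filled points passed the test at an adjusted p under 0.05. On the left all ileal points are filled and positive, from 0.43 to 1.50, and no duodenal point is filled.

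The gut segments of control mice differed in these genes, with 7 members lower in ileum than in duodenum (background 30.3% of 18217 genes) and 1 higher (28.0%). By size these differences were led by Pkm, at -2.31 (SE 0.12), Eno1 at -1.97 (SE 0.10), Tpi1 at -1.53 (SE 0.10), Ldha at -1.39 (SE 0.11) and Pfkl at -1.33 (SE 0.11), with adjusted p of at most 5.2e-06. Pgk1 (-0.96, SE 0.15, adjusted p = 0.00031) and G6pdx (-0.40, SE 0.10, adjusted p = 0.0045) were lower too. Hk2 ran the other way, at 21.7 ± 4.22 CPM in duodenum and 47.8 ± 7.76 CPM in ileum (1.15, SE 0.16, adjusted p = 0.00024). Slc2a1 (0.30, SE 0.13, adjusted p = 0.066) and Aldoa (-0.24, SE 0.12, adjusted p = 0.112) did not pass, though Slc2a1 did with the mouse as a block (0.30, adjusted p = 0.017), which makes 2 members higher, and also without C134.

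In mutant mice 4 members were lower in ileum than in duodenum and 2 higher, in libraries that the genotype comparisons also use. Pkm (-1.60, SE 0.15), Eno1 (-1.08, SE 0.14), Tpi1 (-0.84, SE 0.15) and Ldha (-0.54, SE 0.16, adjusted p = 0.025) were lower (background 18.2% of 17852 genes). The Ldha call was lost without M136, M168 or M177, with adjusted p of up to 0.161. Hk2 (1.38, SE 0.27, adjusted p = 0.0043) and Slc2a1 (1.28, SE 0.25, adjusted p = 0.0038) were higher (background 12.9%). Pfkl stood at 70.4 ± 11.0 CPM in mutant duodenum and 73.3 ± 12.1 CPM in mutant ileum (0.07, SE 0.15), where control mice had 86.7 ± 9.91 and 34.3 ± 4.72 CPM. Aldoa (0.30, SE 0.12), Pgk1 (-0.37, SE 0.20) and G6pdx (-0.08, SE 0.19) did not pass.

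Per length, the members spanned a wide range of levels. In control duodenum Ldha stood at 395 ± 25.9 FPKM, Tpi1 at 272 ± 22.8, Pkm at 196 ± 30.3 and Aldoa at 161 ± 14.4, followed by Eno1 at 32.9 ± 3.88, G6pdx at 30.8 ± 2.78, Pfkl at 13.0 ± 1.48, Slc2a1 at 4.15 ± 0.595, Hk2 at 3.64 ± 0.708 and Pgk1 at 2.32 ± 0.196 FPKM. The ranges of Pkm and Aldoa overlapped, as did those of Eno1 and G6pdx and of Slc2a1 and Hk2. In control ileum the order was Ldha at 149 ± 13.0, Aldoa at 135.6 ± 19.7, Tpi1 at 93.2 ± 5.02, Pkm at 39.2 ± 1.54 and G6pdx at 23.1 ± 2.69 FPKM, then Eno1 at 8.35 ± 0.712, Hk2 at 8.00 ± 1.30, Pfkl at 5.14 ± 0.707, Slc2a1 at 5.08 ± 0.700 and Pgk1 at 1.18 ± 0.199 FPKM. There Ldha overlapped with Aldoa, Eno1 with Hk2 and Pfkl with Slc2a1. In mutant ileum Ldha reached 264 ± 26.9, Aldoa 210.2 ± 13.2, Tpi1 123 ± 11.6, Pkm 70.7 ± 3.72 and G6pdx 32.2 ± 6.38 FPKM, and Hk2, Eno1 and Slc2a1 came together at 14.4 ± 5.38, 14.4 ± 1.02 and 13.96 ± 4.53 FPKM, with Pfkl at 11.0 ± 1.82 and Pgk1 at 2.09 ± 0.361 FPKM. The ranges of Hk2, Eno1 and Slc2a1 overlapped, and that of Pfkl, 8.93 to 13.4 FPKM, overlapped with each of them.

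Pgk1 was far below its neighbours in the pathway, and so were Gapdh, the enzyme before it, and Pgam1, the enzyme after it, at 9.24 ± 2.70 and 13.6 ± 2.15 CPM in control duodenum. These genes have many processed copies. Of the 50-base windows along its transcripts, Pgk1 shared 53.9% with other genes, Pgam1 36.2% and Gapdh 25.1%, while Eno1 shared 26.0%, Pkm 25.8%, G6pdx 16.9% (with the overlapping Ikbkg), Ldha 9.26%, Aldoa 6.43%, Tpi1 4.18%, Slc2a1 1.54%, Pfkl 0.03% and Hk2 none. How the counting treated reads from such windows is not given in the sources used here, and the levels of Pgk1, Pgam1, Gapdh, Eno1 and Pkm are therefore uncertain. Slc2a1, Hk2 and Pfkl are nearly free of this limit.

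For 5 members that belong to small enzyme families, the share of the family total, per length, was examined after the values were seen. In the ileum Pfkl made up 18.3, 19.98, 15.9 and 14.9% of phosphofructokinase transcripts in C133, C134, C151 and C154 and 27.0, 31.3, 27.5 and 30.3% in M136, M167, M168 and M177, with no overlap. Pfkp, the platelet-type subunit, did not pass there (0.18, SE 0.12, adjusted p = 0.274). The Pkm share of pyruvate kinase was 40.5, 35.9, 41.2 and 36.2% in controls and 48.5, 55.2, 41.9 and 48.8% in mutants, with M168 just above the highest control. Pklr, the partner made in liver and gut epithelium, had 204 ± 21.9 and 247 ± 59.7 CPM (0.31, SE 0.16, adjusted p = 0.170).

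Ldha made up 97.6 ± 0.741% of lactate dehydrogenase in control ileum and 99.1 ± 0.128% in mutant ileum, again without overlap. Hk2 made up 16.8 ± 2.49 and 26.7 ± 7.24% of the sum of Hk1, Hk2, Hk3 and Hkdc1, most of the rest being Hkdc1. Eno1 made up 66.4 ± 5.12 and 68.8 ± 4.69% of enolase. An exact two-sided permutation test of 4 against 4 libraries reached its smallest possible p of 0.0286 for Pfkl, Pkm and Ldha, which adjusted over the 10 shares tested was 0.0952, so none passed. An adjusted p under 0.05 needed most of the 10 shares at that smallest p. The test could therefore hardly pass and does not decide whether these shares differed. In the duodenum Hk2 was 4.76 ± 0.826% of the hexokinase sum in controls, and no duodenal share passed, the smallest exact permutation p being 0.0571.

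**Figure D3:**
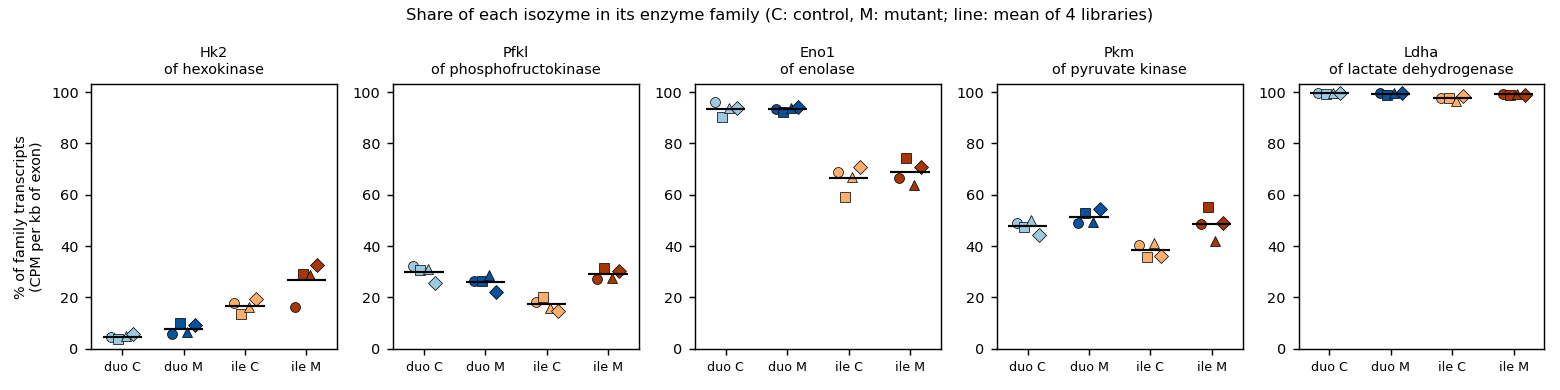
Share of 5 members in the transcripts of their enzyme family, in percent of CPM per kb of exon, for each library (duo: duodenum, ile: ileum; symbols mark the mice as in the plot of levels by library). The ileal mutant libraries lie above the control libraries for Pfkl, Pkm and Ldha, while Hk2 and Eno1 overlap.

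The rest of sugar metabolism moved less uniformly. Over 5 lists of other pathway genes, 27 of 79 tested genes rose and 10 fell in mutant ileum, with a median log2 fold change of 0.18. The backgrounds over all genes were 19.0 and 14.6%. With single mice left out the counts were 19 to 31 and 6 to 11, and without C134 and C154 they were 18 and 9.

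Of 31 other glycolysis genes tested, 12 rose and 4 fell in mutant ileum. Genes of lactate carriers rose: Slc16a3 (MCT4) from 13.4 ± 2.45 to 35.5 ± 9.15 CPM (1.44, SE 0.20, adjusted p = 0.00064) and Slc16a1 (MCT1) from 94.6 ± 2.53 to 150.9 ± 16.5 CPM (0.71, SE 0.09, adjusted p = 0.00032). Pgam1 rose by 0.74 (SE 0.12), Aldoc, another aldolase, by 0.80 (SE 0.16) and Pfkfb1, which makes and breaks the activator fructose-2,6-bisphosphate, from 1.31 ± 0.170 to 2.56 ± 0.507 CPM (SE 0.20 on the log2 scale). Pfkfb3, an enzyme of the same kind, fell from 32.6 ± 4.40 to 14.99 ± 3.79 CPM (-1.09, SE 0.18, adjusted p = 0.0013). Pdk1, a kinase that shuts pyruvate dehydrogenase, rose from 43.7 ± 1.50 to 66.4 ± 5.65 CPM (0.64, SE 0.09, adjusted p = 0.00036) while Pdk2 fell from 74.7 ± 12.9 to 37.3 ± 6.22 CPM (-0.97, SE 0.15, adjusted p = 0.00067). The other genes that fell were Ldhb (-0.54, SE 0.18) and the glucose transporter gene Slc2a3 (-0.87, SE 0.20), which is named after its values were seen. The Ldhb call was lost in 9 of 17 alternatives.

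Of 8 pentose phosphate genes tested beside G6pdx, 4 rose in mutant ileum and none fell. Pgd, which follows G6pdx and yields NADPH, rose from 205 ± 15.1 to 370.0 ± 78.7 CPM (0.88, SE 0.14, adjusted p = 0.0011), and Tkt, the transketolase that links the route back to glycolysis, from 574 ± 46.6 to 781 ± 99.6 CPM (0.48, SE 0.12, adjusted p = 0.0093). H6pd, the enzyme of the endoplasmic reticulum, rose by 0.31 (SE 0.08) and Rpia, the ribose-5-phosphate isomerase, by 0.40 (SE 0.11). Without C134 and C154, 2 of the 8 rose. The Rpia call was also lost without M136 or M177 (adjusted p of up to 0.0515).

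Of 13 genes of glycogen, hexosamine and UDP-glucose synthesis, 5 rose and 2 fell. Phosphoglucomutases, which move glucose-6-phosphate to glucose-1-phosphate or act on related sugars, led the rises: Pgm2 from 113 ± 8.53 to 200.1 ± 30.0 CPM (0.85, SE 0.12, adjusted p = 0.00036), Pgm3 by 0.52 (SE 0.12) and Pgm1 by 0.41 (SE 0.10). Ugp2, which makes UDP-glucose, rose by 0.49 (SE 0.09). Gfpt1, which opens the hexosamine route, rose by 0.30 (SE 0.10), its relative Gfpt2 fell by 0.92 (SE 0.29) and the muscle glycogen phosphorylase Pygm by 0.83 (SE 0.25); these 3 are named after their values were seen and lost their calls in 11, 5 and 5 of 17 alternatives. Without C134 and C154 the counts were 3 and 1, and the Pgm1 call was among those lost. Of 10 genes of gluconeogenesis and fructose use, 2 rose and 2 fell, close to the backgrounds of 19.0 and 14.6%. Pck1, which makes phosphoenolpyruvate, fell from 167.9 ± 30.6 to 69.6 ± 8.70 CPM (-1.24, SE 0.14, adjusted p = 0.00012) and G6pc, which releases free glucose, from 31.7 ± 13.3 to 9.11 ± 1.68 CPM (-1.77, SE 0.32, adjusted p = 0.0036). G6pc3, a widely made relative of G6pc, rose by 0.54 (SE 0.10) and Pck2, the mitochondrial form, by 0.28 (SE 0.09), the latter losing its call in 11 of 17 alternatives. The Pck1 call was lost in the fit of all 16 libraries and the G6pc call without M167 and M177.

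Of 17 regulators and hypoxia targets, 4 rose and 2 fell, close to the backgrounds of 19.0 and 14.6%. The median log2 fold change of this list was 0.01. Hif1a, the oxygen-regulated subunit of the hypoxia-inducible factor, rose from 98.0 ± 11.0 to 231 ± 44.9 CPM (1.27, SE 0.15, adjusted p = 0.00015). Egln3, a prolyl hydroxylase and target of that factor, rose from 46.6 ± 14.2 to 128 ± 19.1 CPM (1.48, SE 0.20, adjusted p = 0.00064), and Car9, a carbonic anhydrase and classic target, from 25.9 ± 1.59 to 56.5 ± 3.64 CPM (1.16, SE 0.09, adjusted p = 3.2e-05). Max, the partner of MYC, fell from 186 ± 18.1 to 98.4 ± 19.6 CPM (-0.89, SE 0.14, adjusted p = 0.00098). Bnip3, a target that acts in mitophagy, rose by 0.49 (SE 0.15) and Txnip, a glucose-induced gene, fell by 0.32 (SE 0.10), each losing its call in 7 of 17 alternatives. Vegfa, another hypoxia target, did not pass (-0.37, SE 0.18, adjusted p = 0.135), nor did Myc (-0.13, SE 0.15) or Epas1 (0.01, SE 0.14); these 5 are named after their values were seen.

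In the duodenum 1 of the 79 pathway genes rose and 4 fell. The backgrounds over all genes there were 3.44 and 5.11%, so neither count was above its background. Prps1, which makes phosphoribosyl pyrophosphate from ribose-5-phosphate, rose by 0.56 (SE 0.12, adjusted p = 0.025), and Hk3 (-0.81, SE 0.19), Mxi1 (-0.62, SE 0.17), Mlx (-0.52, SE 0.14) and Vhl (-0.48, SE 0.12) fell, with adjusted p from 0.028 to 0.049. None of the 5 was called without C134 and C154 or without M167 and M177, and counts with single mice left out were 0 to 3 higher and 0 to 6 lower. In the direct test of the tissue difference, 10 of 80 pathway genes had a more positive and 2 a more negative effect in the ileum. The backgrounds over all genes were 4.86 and 4.13%. Among the genes called were Slc16a3 (1.91, SE 0.39), Egln3 (2.03, SE 0.41), Hif1a (1.28, SE 0.28), Pgam1 (1.04, SE 0.19), Pgd (0.85, SE 0.21) and G6pc (-3.01, SE 0.60). None of the 80 was called without C134 and C154, where 0.0698 and 0.0399% of all genes were called. With single mice left out the counts were 1 to 11 and 0 to 3, where 0.508 to 5.97% and 0.436 to 5.07% of all genes were called. With the mouse as a block they were 18 and 5, where 10.8 and 10.0% of all genes were called.

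**Figure D4:**
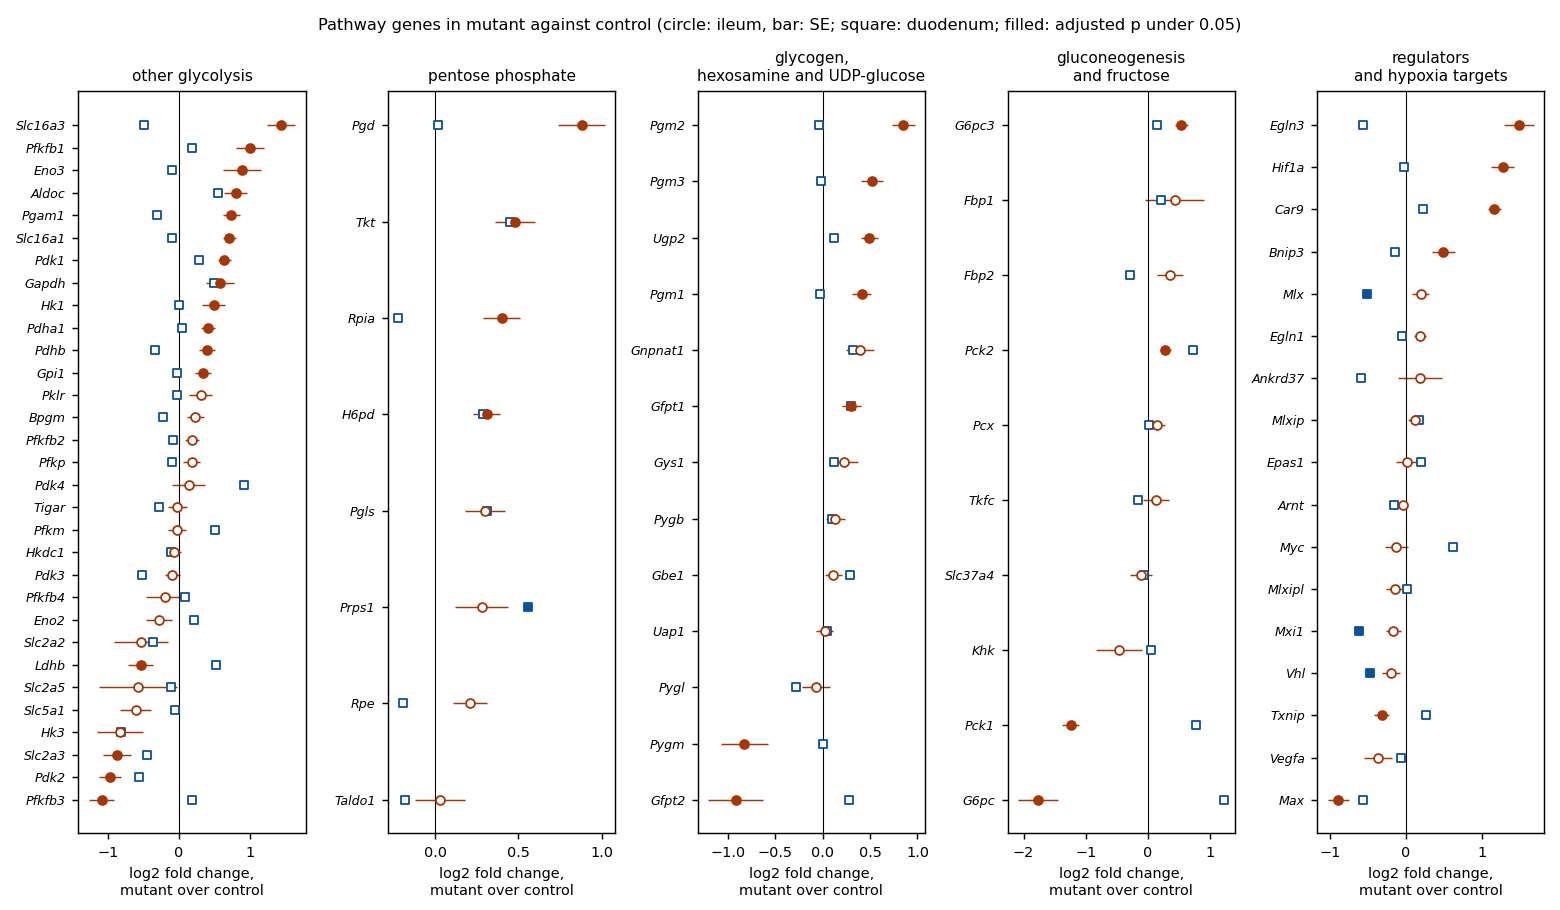
Log2 fold change, mutant over control, of the tested genes of 5 lists of sugar metabolism; circles with SE bars are the ileum, squares the duodenum, and filled symbols passed the test at an adjusted p under 0.05. The axes differ between panels. In the ileum 27 genes are filled to the right of 0 and 10 to the left (backgrounds 19.0 and 14.6% of all genes). In the duodenum 1 and 4 are filled (backgrounds 3.44 and 5.11%).

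Markers of other cells moved with the ileal rise. Of 7 lymphocyte and follicle markers, 6 fell, and their summed level was 69.5 to 252 CPM in control and 20.5 to 34.7 CPM in mutant ileum. Of 4 macrophage markers C1qa, C1qb and Csf1r fell (119.8 to 166.9 against 69.9 to 107 CPM) and of 3 endothelial markers Cdh5 and Kdr fell (97.4 to 117 against 71.0 to 88.4 CPM). Of 7 crypt and cycling markers, Mki67 (0.73), Top2a (0.84), Pcna (0.65) and Cdk1 (0.98) rose and Olfm4 (-1.28) fell, and their sum was 1067 to 1383 CPM in controls and 931 to 1211 CPM in mutants. Of 7 smooth muscle markers Tagln and Actg2 rose (2015 to 2934 against 2272 to 3840 CPM), and of 8 enterocyte markers Lct alone fell (10497 to 22301 against 7619 to 19480.5 CPM). No defining marker of these lists was at 0 in either group. None of 12 pancreatic and 5 red cell markers was called there. The part of these cell types in the members' rise was not tested. Without C134 and C154, 8 members were called higher in mutant ileum (12.4% of all genes), and without M167 and M177, 9 (18.3%). In the duodenum, where no member was called, 2 of 4 tested lymphocyte markers and 3 of 4 macrophage markers fell, while Top2a (0.45) and the smooth muscle marker Acta2 (0.52) rose. Of 3 Paneth cell markers, Defa30 (0.74, SE 0.13, adjusted p = 0.0087) and Mmp7 (1.0, SE 0.19, adjusted p = 0.014) rose in the duodenum and Lyz1 did not pass (0.55, SE 0.17, adjusted p = 0.065). Their sum was 2410 to 3049 CPM in control and 3851 to 4207 CPM in mutant duodenum. In the ileum none of the 3 was called, and their sum was 5229 to 9158 CPM in controls and 3732 to 9013 CPM in mutants.

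Across the 16 libraries Pkm, Eno1 and Hk2 varied most, with SD of log2 CPM of 1.07, 0.85 and 0.81. After removing each gene's own mean, the genes closest to Pkm among 14249 with a mean of at least 1 CPM were Slc19a1 (root mean square difference 0.201 log2 units), Ppa1 (0.247), Ahcyl1 (0.247), Eno1 (0.249) and Gm6560 (0.265). Those closest to Eno1 were Grhpr (0.166), Dlat (0.184), Ociad2 (0.204), Gm12070 (0.206) and Chchd10 (0.208). Those closest to Hk2 were Ckap4 (0.236), Itga5 (0.261), Piezo1 (0.271), Fasn (0.275) and Abcc4 (0.276). Pkm and Eno1 were lower in ileum than in duodenum in both genotypes and Hk2 was higher, so libraries of the same tissue are not independent points in these distances.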

How the data were processed

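Total RNA-seq libraries of duodenum and ileum from 8 mice were analysed. The deposited table holds the authors' raw counts per gene, and the submitters' processing notes name STAR 2.5.3a, HTSeq 0.6.1p1, Bowtie2 2.2.8, cutadapt 1.10 and mm39. Annotation release and strand setting: not given in the sources used here. Symbols (52083 of 55359 identifiers), exon lengths and shared 50-base windows came from GENCODE M21 and promoters from RefSeq, both on an earlier build than the counts.

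Counts were tested with edgeR 4.0.16 (limma 3.58.1, R 4.3.3): filterByExpr, scaling by the trimmed mean of M values, robust quasi-likelihood F test, Benjamini-Hochberg adjustment over all tested genes, threshold 0.05. Each tissue or genotype was fitted on its own, and the genotype by tissue test on all 16 libraries. The script was tested on simulated data. Alternatives were DESeq2 1.42.0 (size factors, or its Wald test in full), voom from limma, a test of all genes with a count or 1 CPM in 4 libraries, pancreas genes left out, 1 fit of all libraries, each mouse left out, the mice C134 and C154 or M167 and M177 left out, and the mouse as a block. Titles repeat each mouse number in both tissues, and deviations from group means correlated within every mouse (r of 0.221 to 0.481), so the numbers were taken as pairs. P-values of the genotype tests within a tissue measure the spread between the 4 mice of a group. The main fits between tissues, and of genotype by tissue, treated both libraries of a mouse as independent. Their p-values ignore this pairing, which only the fits with the mouse as a block use.

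Named genes were all members, their isozyme partners, up to 8 called genes of other glycolysis and up to 4 of each other list by smallest p, and the 5 nearest patterns of the 3 most variable members. Some genes of these lists are not reported here and are left out of their counts. The members and lists were chosen with earlier results of these data known.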

Additional observations from a re-analysis of the deposited data

Results flagged for a closer look

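In 40 groups of 4 libraries, 10 members in each of 4 groups, 2 single libraries stood far from the other 3: Hk2 at 15.4 CPM in the duodenum of C134, below the other controls, and Eno1 at 208 CPM in that of C133, above them. Chance alone gives about 1 in 20 such groups, and Eno1 in M136 was as high.

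The genotype effect differed between ileum and duodenum by a direct test for 5 members (edgeR, log2 difference): Pfkl 1.40, Eno1 0.88, Ldha 0.85, Pkm 0.70 and Tpi1 0.69. It also differed for 12 of the 80 pathway genes tested, where 4.86% of all genes had a more positive and 4.13% a more negative effect. More positive in the ileum were Egln3 (2.03), Slc16a3 (1.91), Hif1a (1.28), Pgam1 (1.04), Pgm2 (0.87), Pgd (0.85), Slc16a1 (0.77), Pdhb (0.71), Mlx (0.70) and Rpia (0.61), and more negative were G6pc (-3.01) and Pfkfb3 (-1.29). Of these 17 genes, Pfkl, Eno1 and Pgam1 passed whichever mouse was left out. The highest adjusted p with 1 mouse left out was 0.112 for Pkm, 0.0851 for Tpi1 and 0.0721 for Ldha.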

How the results depend on the processing

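Depth was 40.9 M counts or more per library, and the scarcest member, Pgk1, had 135 to 370 counts. In mutant ileum 10 members were higher, and 157 of 170 fold changes under the alternatives kept their side of the threshold, the other 13 being those of Hk2 and G6pdx. In the duodenum 1 member was higher with the DESeq2 Wald test, with no low-count filter and with a filter of 1 CPM, and 0 to 2 with single mice left out. The tissue difference in effect held for 2 to 6 members with single mice left out, 1 without C134 and C154 and 3 without M167 and M177. Paired by mouse, in the fit with the replicate block, it held for 7 (10.8% of all genes were more positive). It also held for 7 with DESeq2 size factors, the DESeq2 Wald test and pancreas genes left out (5.96, 9.12 and 6.16% of all genes). With the block, 2 members were higher in control ileum than in control duodenum. Counts of 2 were also found there with DESeq2 size factors, the DESeq2 Wald test, the 1 CPM filter, pancreas genes left out and C134 and C154 left out, and 1 to 2 with single mice left out. In mutant mice 1 was higher without M167 and M177. Among the members the block changed no call other than those of Slc2a1 and Aldoa.

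Directions of uncalled values turned for Eno1 in the duodenum (-0.21 to 0.01 with single mice left out, 0.11 without M167 and M177), Ldha (-0.08 to 0.07, 0.14 without those 2 mice, 0.01 with the 1 CPM filter), Pkm (-0.00 without C134 and C154) and, for ileum over duodenum in mutants, Pfkl (-0.11 to 0.26, -0.21 without M167 and M177). The cause was not tested. Shares of enzyme families computed without dividing by exon length, added after seeing the data, kept their direction.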
